A study of Mus musculus with 78 samples.

Results

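The genes examined here are 10 components of the Notch pathway in mouse carotid endothelium: the ligands Dll1, Dll4, Jag1 and Jag2, the receptors Notch1 and Notch4, and the Hey and Hes repressor genes Hey1, Hey2, Heyl and Hes1. They were chosen by name, with earlier results of these data known. Each was read from the array probe set annotated to that symbol alone, taking the probe set with the highest mean over all 78 arrays where there were several. Of 17097 genes with such a probe set, 9 belonged to the group, because Jag2 had no probe set annotated to it alone and was not analysed here. Hes1 was above the array median on 1 of 78 arrays and did not pass the filter for testing, so 8 of the 10 genes were among the 11344 genes tested.

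All mice underwent partial ligation of the left common carotid artery (LCA), which lowers and disturbs blood flow in that vessel, while the right common carotid artery (RCA) of the same mouse served as the control. Mice received atorvastatin, a statin that blocks cholesterol synthesis, at 10 mg/kg per day or vehicle by mouth, starting 2 days before surgery. Both arteries of a mouse were collected either 12 h or 24 h after surgery, or 48 h or 2 weeks after it. There were 5 mice in each of the 8 combinations of treatment and time, except 4 in the atorvastatin group at 48 h, giving 39 mice and 78 arrays. Vehicle mice carry the numbers 1 to 5 and atorvastatin mice 6 to 10, and the numbering restarts at each time, so that mouse 2 at 48 h and mouse 2 at 2 weeks are different animals. Strain, sex and age were not given in the sources used here, and no unoperated mice were analysed here, so the RCA comes from an operated animal in every group.

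Notch receptors sit on the cell surface and are activated by Delta-like or Jagged ligands on a neighbouring cell. The receptor is then cut, and its intracellular part enters the nucleus, joins the DNA-binding protein RBPJ and turns on genes of the Hey and Hes families, which are transcriptional repressors. In endothelium the pathway is known for arterial identity, for restraint of sprouting and for responses to blood flow, and in the vessel wall it also acts in smooth muscle cells, where Notch3 is the characteristic receptor and Heyl one of its targets.

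RNA was flushed from the inside of each artery and is called endothelial-enriched in the labels. The endothelial genes Pecam1 and Cdh5 were high in every array, with a lowest value of 9.87 on the log2 scale, against array medians of 4.59 to 4.77. The mean of 8 fibroblast genes also lay above these medians on every array, at 5.28 to 9.13. So did the smooth muscle gene Acta2, at 7.67 or more. Genes of other cells moved with artery and time. The mean of 10 macrophage genes lay between 7.62 and 8.59 in the LCA at 2 weeks and between 3.38 and 5.69 in the RCA, and 5 neutrophil genes reached 9.40 in the LCA at 48 h. The mean of 14 endothelial genes differed between arteries by -0.51 to -0.01 on average in the 8 groups. The log2 ratio of 3′ to 5′ Gapdh probes, a sign of RNA quality, averaged 4.97 in the LCA and 4.04 in the RCA of vehicle mice at 24 h, and the group means lay between 3.80 and 4.97 in all. At 48 h it averaged 3.95 in the LCA and 4.33 in the RCA under vehicle, and 3.97 and 3.81 under atorvastatin. Over 39 mice its LCA minus RCA value correlated with those of the Notch genes by r = -0.36 (Notch1) to 0.39 (Hey2). The same ratio for b-actin had a higher mean in the LCA than in the RCA in all 8 groups. The gap was smallest under atorvastatin at 24 h (-0.20 against -0.30) and largest under atorvastatin at 48 h (-0.04 against -0.45). The part of RNA quality in the gene differences was not tested. A probe set's level cannot be set against that of another, so each gene is compared only with itself, and the number of arrays limits the precision of every value.

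The ligated and control arteries differed in several of these genes from the first time point, and in both directions. Dll1 was lower in the ligated artery at all times, and Notch1 at 24 h, 48 h and 2 weeks. Jag1 was lower at 24 h and 48 h, and Hey2 at 48 h. Hey1 was higher at 24 h and 2 weeks, Dll4 at 48 h and Heyl at 2 weeks. With limma on the within-mouse difference and Benjamini-Hochberg adjustment over all genes tested, a gene was called at an adjusted p under 0.05. In vehicle mice 2 of the 8 tested Notch genes were called at 12 h, where 2.39% of all genes were called, 4 at 24 h (14.3% of all genes), 5 at 48 h (36.2%) and 4 at 2 weeks (27.8%). In atorvastatin mice the counts were 2 at 12 h (1.68% of all genes), 4 at 24 h (13.1%), 5 at 48 h (31.8%) and 5 at 2 weeks (29.9%). By direction, higher calls numbered 1, 1, 1 and 2 in vehicle mice, against 1.31%, 7.19%, 20.8% and 15.5% of all genes at 12 h, 24 h, 48 h and 2 weeks, and lower calls 1, 3, 4 and 2, against 1.08%, 7.09%, 15.4% and 12.3%. Under atorvastatin higher calls numbered 0, 1, 1 and 2, against 0.758%, 7.29%, 16.6% and 14.5%, and lower calls 2, 3, 4 and 3, against 0.926%, 5.80%, 15.2% and 15.4%. The shares over all genes do not account for the choice of these genes with earlier results known.

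**Figure D1:**
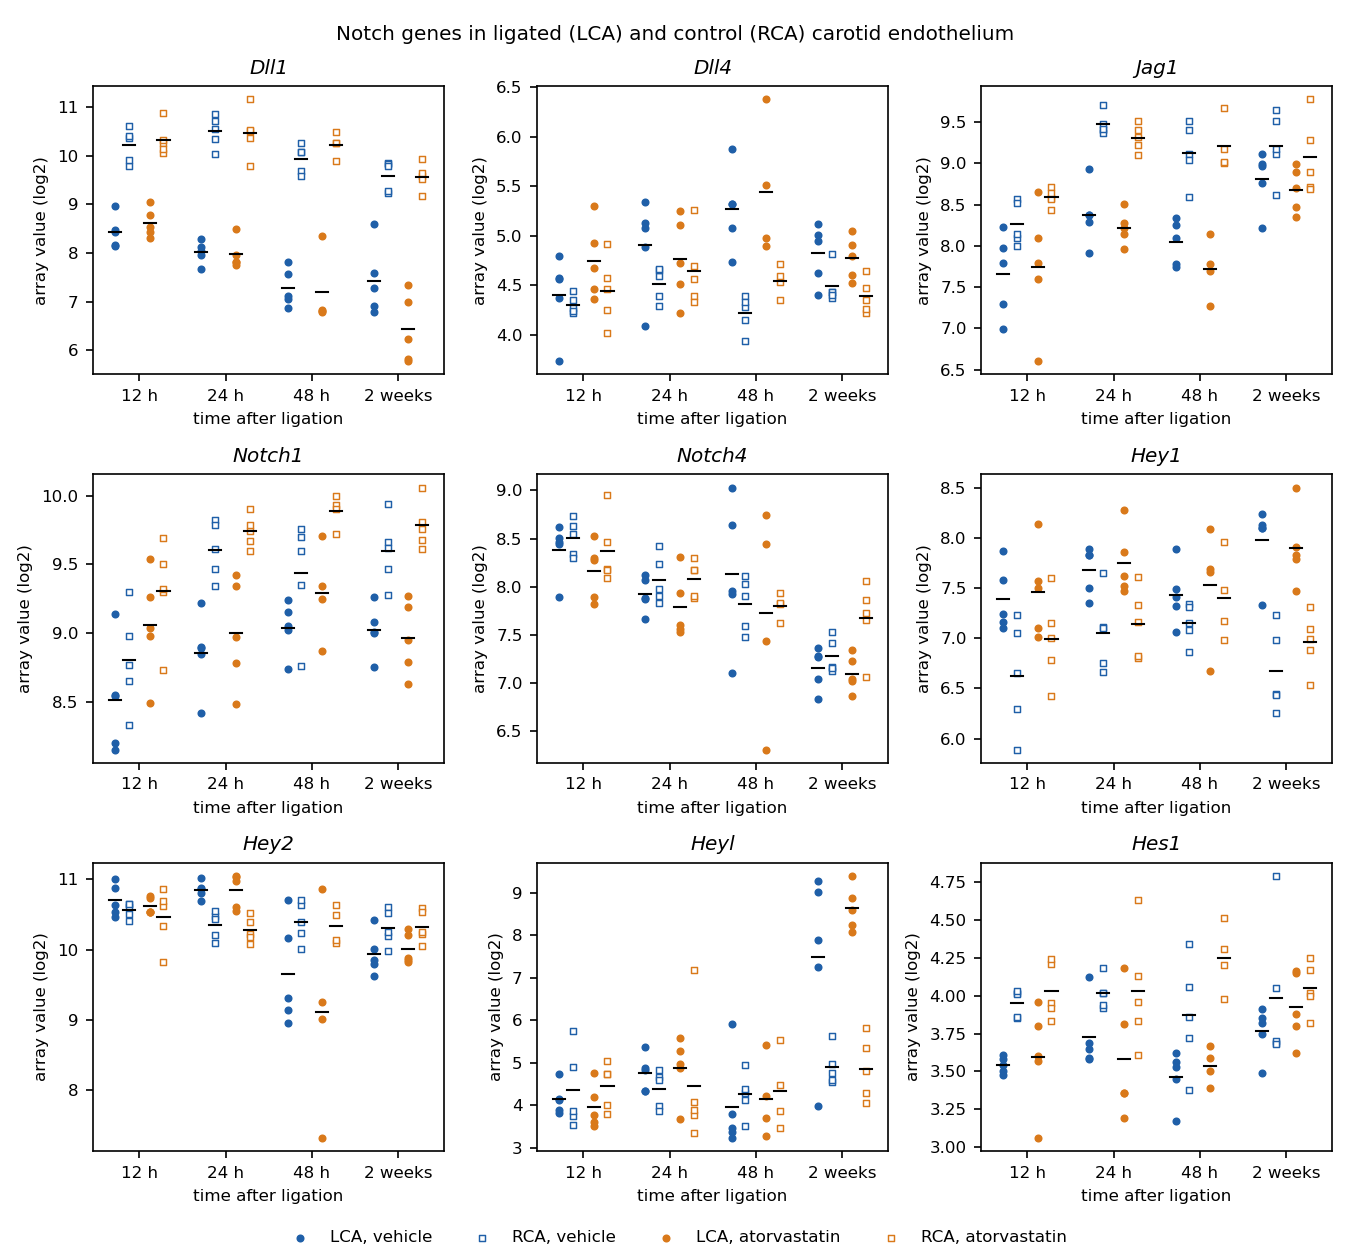
Array values (log2) of the 9 measured genes by time after ligation. Filled circles are LCA samples and open squares RCA samples, in blue for vehicle and orange for atorvastatin, and black bars are means of 5 mice (4 for atorvastatin at 48 h). The highest LCA value of Dll1, 9.05, lies below its lowest RCA value, 9.16, and Heyl in the LCA at 2 weeks reaches 9.40.

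Among the ligands, Dll1 had the most uniform difference. Delta-like 1 is a ligand of arterial endothelium. In vehicle mice at 12 h its LCA values were 8.14, 8.96, 8.42, 8.47 and 8.17 in mice 1 to 5, and the RCA values of the same mice were 10.37, 9.79, 9.90, 10.40 and 10.60. By 48 h the LCA values were 7.06, 7.56, 7.11, 7.81 and 6.87, against 10.25, 9.69, 10.08, 10.08 and 9.58 in the RCA. Every mouse was lower in the ligated artery, 39 of 39, and no LCA sample of any group reached the lowest RCA sample of the study. Because the samples are bulk RNA, fewer cells of a type and less RNA per cell cannot be told apart for this or any other gene.

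The mean Dll1 difference in vehicle mice was -1.78 ± 0.27 (SE, n = 5) at 12 h, -2.48 ± 0.27 at 24 h, -2.66 ± 0.27 at 48 h and -2.16 ± 0.27 at 2 weeks, with adjusted p = 9.85e-05, 8.35e-08, 1.06e-08 and 9.44e-08. Under atorvastatin it was -1.71 ± 0.27, -2.50 ± 0.27, -3.03 ± 0.30 (n = 4) and -3.14 ± 0.27, with adjusted p = 0.000205, 6.11e-08, 1.21e-08 and 3.17e-11. These are 3.26-fold to 8.81-fold lower values in the ligated artery. LCA and RCA ranges did not overlap in any of the 8 groups, a separation in the lower direction that 1.05% to 13.8% of all genes showed depending on the group. The mean of the 14 endothelial genes differed by -0.78 to -0.12 in the mice of 48 h, less than Dll1 in each, and its part in the Dll1 difference was not tested.

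Dll1 was also lower at later times within the ligated artery. Its LCA mean was 8.62 ± 0.29 (SD, n = 5) at 12 h, 7.97 ± 0.31 at 24 h, 7.19 ± 0.77 (n = 4) at 48 h and 6.42 ± 0.70 at 2 weeks under atorvastatin, and 8.43 ± 0.33, 8.02 ± 0.23, 7.28 ± 0.39 and 7.43 ± 0.72 (SD, n = 5 each) under vehicle. The control artery also had lower Dll1 at 2 weeks than at 24 h. Its RCA means were 9.56 ± 0.28 against 10.47 ± 0.49 under atorvastatin and 9.59 ± 0.31 against 10.50 ± 0.32 under vehicle. The difference from the RCA changed over time in atorvastatin mice (F test, adjusted p = 0.0128) and did not pass the threshold in vehicle mice. At 2 weeks the atorvastatin mice lay below the vehicle mice by 0.98 in their LCA minus RCA values (difference -0.98 ± 0.38 SE, unadjusted p = 0.0147), which did not pass adjustment over all genes (adjusted p = 1). The LCA values at that time were 6.99, 5.82, 7.33, 6.22 and 5.77 in atorvastatin mice 6 to 10 and 6.78, 8.60, 7.58, 7.28 and 6.91 in vehicle mice 1 to 5, so that the ranges overlapped.

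Jag1, a Jagged ligand of endothelium and smooth muscle, was lower in the ligated artery at 24 h and 48 h and near the control at 2 weeks. At 24 h the LCA values of vehicle mice 1 to 5 were 8.29, 8.37, 8.93, 8.38 and 7.91, and the RCA values were 9.48, 9.71, 9.40, 9.37 and 9.42. The arteries did not overlap at 24 h or 48 h in either treatment. Such a separation in the lower direction was shown by 5.38% to 8.92% of all genes in these groups. The mean difference was -1.10 ± 0.23 (SE, n = 5; adjusted p = 0.000952) in vehicle and -1.09 ± 0.23 (adjusted p = 0.00109) in atorvastatin mice at 24 h, and -1.09 ± 0.23 (adjusted p = 0.000299) and -1.49 ± 0.25 (n = 4; adjusted p = 4.46e-05) at 48 h.

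At 2 weeks the Jag1 differences were -0.40 ± 0.23 and -0.39 ± 0.23 and were not called, and the step from 48 h to 2 weeks was 1.10 ± 0.34 (adjusted p = 0.0373) under atorvastatin and was not called under vehicle (0.69, adjusted p = 0.209). The atorvastatin step was lost when any 1 of 7 of the 9 mice of these times was left out. Vehicle mouse 2, with a difference of -1.29 at 2 weeks, had no excess of smooth muscle genes in its LCA, whereas mouse 1, with 0.37, had the largest one. Over the 10 mice of 2 weeks the Jag1 difference followed the mean difference of 7 smooth muscle genes with r = 0.79, and over the 29 earlier mice with r = 0.18; the points share the arrays on which both were measured, and the part of smooth muscle RNA in the Jag1 values was not tested. The code number in the sample titles is shared by both arteries of a mouse, and its meaning is not given. With it as a further block, the difference of a group is estimated at the lowest code number and is not the mean of its mice. So fitted, the 24 h calls and the vehicle 48 h call were lost (-0.96, -0.94 and -0.94, adjusted p = 0.228, 0.241 and 0.12). That does not decide whether these calls depend on the code number. The atorvastatin step compares times, so the reference code cancels, and it was lost as well (0.90, adjusted p = 0.299). At 12 h Jag1 was called under atorvastatin (-0.84 ± 0.23, adjusted p = 0.0424) and not under vehicle (-0.61 ± 0.23). The 12 h call was lost when any 1 of 4 of the 5 mice was left out, and without mouse 8, at -2.12, the mean was -0.52.

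Dll4, the ligand best known for restraining sprouting, moved the other way. At 48 h the LCA values of vehicle mice 1 to 5 were 5.88, 5.32, 5.32, 4.73 and 5.08, against 4.15, 3.94, 4.28, 4.39 and 4.33 in the RCA, and every LCA value was above every RCA value. In that group 5.81% of all genes were separated in the higher direction. The mean difference was 1.05 ± 0.21 (SE, n = 5; adjusted p = 0.000245). Under atorvastatin the 4 mice had differences of 0.80, 0.37, 0.39 and 2.03, a mean of 0.90 ± 0.24 (adjusted p = 0.00407), and without mouse 9, the last of these, the mean was 0.52 and the call was lost. The other Dll4 probe set was called at 48 h under vehicle (0.94, adjusted p = 0.00373) and narrowly under atorvastatin (0.75, adjusted p = 0.0457). It was above the array median on only 3 arrays, fewer than the 4 required for testing, so these calls rest on low signal. The probe set representing Dll4 was low as well, with a mean of 4.66, and was above the array median on 32 arrays. At the other times its mean differences lay between 0.10 and 0.39 and none was called. With the code number as a further block Dll4 was called at 24 h under vehicle (1.17, adjusted p = 0.0117) and at 2 weeks in both treatments (0.90 and 1.29, adjusted p = 0.00894 and 0.00227). These are values at the lowest code number, not means of the mice. The largest differences of single mice in these groups were 0.75, 0.74 and 0.83.

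At 48 h the smallest Dll4 differences belonged to the mice with the smallest neutrophil list differences, vehicle mouse 4 (Dll4 0.34, neutrophil genes -0.14) and atorvastatin mouse 7 (Dll4 0.37, neutrophil genes 1.30). Over the 9 mice of that time r was 0.51, and the part of other cells in the Dll4 difference was not tested.

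The promoters of the members that were lower together, and of Hey2, were read from RefSeq (GRCm38.p6) to show their sequence beside these values; windows ran from 250 bases before to 50 bases after the annotated start, and 7 of the 10 genes were in the table. Windows were searched on both strands for GTGGGAA, the word bound by RBPJ, which 6.38% of all 32851 promoter windows hold; for CACGTG, a Hey and Hes binding word held by 7.15%; and for CCACCC, a Krüppel-like factor word held by 31.48%. The windows of Dll1 (2 start sites), Jag1 and Notch1 held no RBPJ word, and that of the first listed Dll1 start site held 1 Krüppel-like factor word, shown in capitals as read on the printed strand. The sequences run 5′ to 3′ on the gene's own strand, from 250 bases before the start to the first 25 transcribed bases. Dll1 lies on the minus strand at chr17:15375799-15376073 and chr17:15376908-15377182, Jag1 on the minus strand at chr2:137116496-137116770 and Notch1 on the minus strand at chr2:26503798-26504072.
Dll1 first listed start: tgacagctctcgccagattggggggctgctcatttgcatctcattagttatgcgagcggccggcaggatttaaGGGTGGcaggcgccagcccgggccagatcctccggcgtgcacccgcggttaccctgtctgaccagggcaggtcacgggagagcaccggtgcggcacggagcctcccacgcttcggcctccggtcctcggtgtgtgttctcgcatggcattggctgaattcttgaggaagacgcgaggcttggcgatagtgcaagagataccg
Dll1 second listed start: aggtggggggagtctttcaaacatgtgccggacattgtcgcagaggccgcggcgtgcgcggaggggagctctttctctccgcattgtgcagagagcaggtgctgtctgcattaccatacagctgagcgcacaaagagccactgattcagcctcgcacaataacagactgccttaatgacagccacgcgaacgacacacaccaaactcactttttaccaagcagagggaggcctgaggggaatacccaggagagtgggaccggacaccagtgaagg
Jag1: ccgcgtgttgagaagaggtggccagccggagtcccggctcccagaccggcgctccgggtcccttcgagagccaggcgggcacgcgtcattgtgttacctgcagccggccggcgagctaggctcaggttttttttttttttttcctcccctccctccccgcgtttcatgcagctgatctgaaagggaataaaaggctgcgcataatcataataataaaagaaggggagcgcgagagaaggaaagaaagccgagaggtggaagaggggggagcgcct
Notch1: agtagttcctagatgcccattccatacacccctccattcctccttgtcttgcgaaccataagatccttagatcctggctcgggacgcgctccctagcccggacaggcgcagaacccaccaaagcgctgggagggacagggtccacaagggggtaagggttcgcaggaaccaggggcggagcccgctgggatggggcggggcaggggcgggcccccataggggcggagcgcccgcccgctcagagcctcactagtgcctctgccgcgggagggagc

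Of the receptors, Notch1, the main Notch receptor of arterial endothelium and a known sensor of flow, was lower in the ligated artery in 38 of 39 mice. At 24 h the LCA values of vehicle mice 1 to 5 were 8.85, 8.42, 8.90, 9.22 and 8.89, below all RCA values, which were 9.61, 9.34, 9.82, 9.79 and 9.47. In that group 6.18% of all genes were separated in the lower direction. The differences at 24 h were -0.75 ± 0.15 (SE, n = 5; adjusted p = 0.000684) and, under atorvastatin, -0.74 ± 0.15 (adjusted p = 0.000889). At 2 weeks they were -0.57 ± 0.15 (adjusted p = 0.00357) and -0.82 ± 0.15 (adjusted p = 4.78e-05). At 48 h Notch1 was lower by a smaller margin, -0.39 ± 0.15 (adjusted p = 0.0371) under vehicle and -0.59 ± 0.17 (n = 4; adjusted p = 0.00641) under atorvastatin. The vehicle call at 48 h was lost when any 1 of mice 1 to 4 was left out, with means of -0.42 to -0.34, and the atorvastatin call was lost without mouse 6, at -0.51. With the code number as a further block, the calls at 24 h and 48 h were lost (-0.64 and -0.07 in vehicle mice) and those at 2 weeks were kept. These are values at the lowest code number, which no vehicle mouse of 48 h had, and not means of the mice.

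Notch1 also changed in the control artery of vehicle mice. Its RCA mean was 8.81 ± 0.36 (SD, n = 5) at 12 h and 9.61 ± 0.20, 9.43 ± 0.41 and 9.59 ± 0.24 at 24 h, 48 h and 2 weeks (F test over time in limma, adjusted p = 0.00212). The LCA of the same mice stood at 8.52 ± 0.40 at 12 h and 8.86 ± 0.29, 9.04 ± 0.19 and 9.02 ± 0.18 later (adjusted p = 0.0825). In both arteries the lowest mean was that of 12 h.

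Notch4, a receptor largely restricted to endothelium, showed little difference between arteries. Its mean differences lay between -0.58 and 0.31, and the ranges overlapped in all 8 groups. It was called only in atorvastatin mice at 2 weeks (-0.58 ± 0.22 SE, n = 5; adjusted p = 0.0484), with differences of 0.18, -0.73, -0.65, -0.82 and -0.87 in mice 6 to 10, and that call was lost when any 1 of mice 7 to 10 was left out. At 48 h the mice were spread widely, from -1.52 in atorvastatin mouse 8 to 0.93 in vehicle mouse 1.

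Notch4 instead changed with time in both arteries. In the RCA of vehicle mice it averaged 8.51 ± 0.19 (SD, n = 5) at 12 h, 8.07 ± 0.25 at 24 h, 7.82 ± 0.27 at 48 h and 7.28 ± 0.18 at 2 weeks (adjusted p = 4.91e-05), and in the LCA 8.39 ± 0.29, 7.92 ± 0.18, 8.14 ± 0.74 and 7.16 ± 0.22 (adjusted p = 0.00615). Atorvastatin mice followed in the RCA (8.37 ± 0.35, 8.09 ± 0.18, 7.80 ± 0.13 and 7.68 ± 0.38, adjusted p = 0.0261). Of the 8 tested Notch genes, 4 changed over time in the RCA of vehicle mice, Dll1, Jag1, Notch1 and Notch4, where 26.8% of all genes did, and 3 in atorvastatin mice, Dll1, Jag1 and Notch4, where 5.88% did. Jag1 in the control artery went from 8.27 ± 0.26 at 12 h to 9.48 ± 0.14 at 24 h under vehicle (adjusted p over time 0.000163). The labels name 4 batches of extraction and profiling without assigning samples to them, so their part in these changes was not tested.

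**Figure D2:**
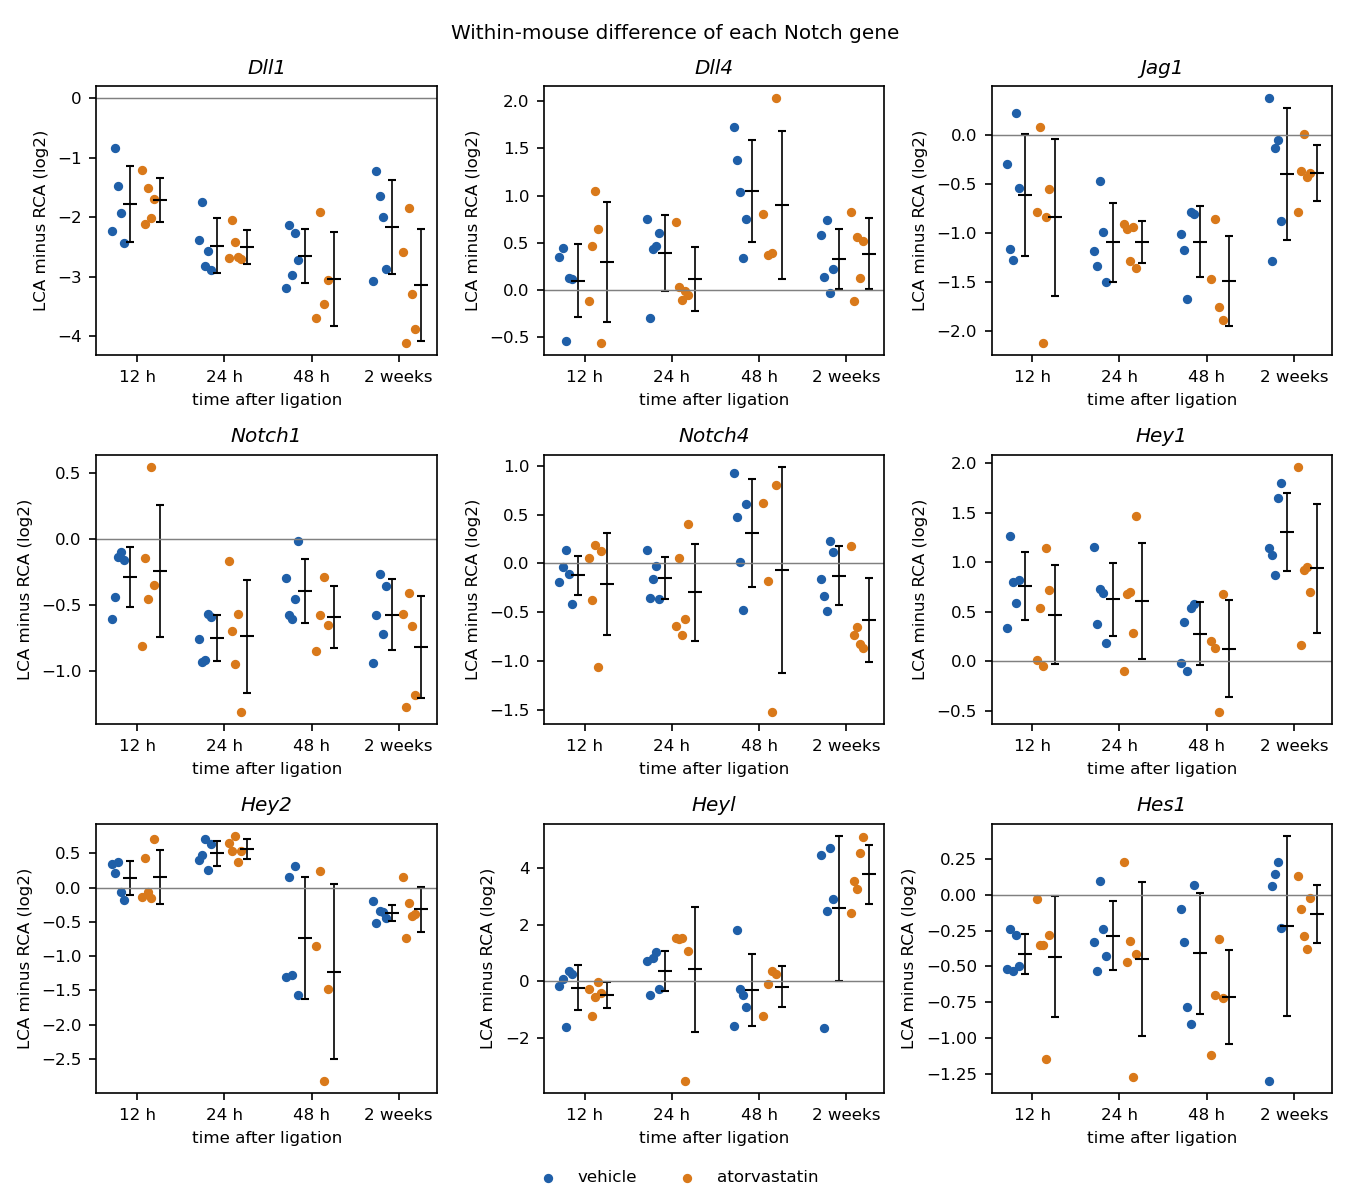
LCA minus RCA within each mouse (log2) for the 9 measured genes by time after ligation. Blue points are vehicle mice and orange points atorvastatin mice, black dashes are means and bars are the SD over 5 mice (4 for atorvastatin at 48 h). All 39 Dll1 points lie below 0, and 9 of the 10 Heyl points at 2 weeks lie above 2.

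Hey1, a repressor and established Notch target, was higher in the ligated artery at 24 h and 2 weeks. Dll1 and Notch1 were called lower at both of these times, and Jag1 at 24 h but not at 2 weeks. In vehicle mice at 2 weeks the LCA values were 8.13, 7.33, 8.10, 8.10 and 8.24 and the RCA values 6.98, 6.26, 7.23, 6.45 and 6.44, with no overlap. In that group 11.1% of all genes were separated in the higher direction. The mean difference there was 1.31 ± 0.21 (SE, n = 5; adjusted p = 6.47e-06), and under atorvastatin 0.94 ± 0.21 (adjusted p = 0.000537). Hey1 was also called at 24 h, with 0.63 ± 0.21 (adjusted p = 0.036) and 0.61 ± 0.21 (adjusted p = 0.0464), and in vehicle mice at 12 h, with 0.77 ± 0.21 (adjusted p = 0.0388). These 3 earlier calls did not survive leaving out any of 4 of their 5 mice, nor the fit without the mouse as a block (adjusted p = 0.0852 at 12 h, 0.0757 and 0.0959 at 24 h). With the code number as a further block they were lost too (0.95, 0.86 and 0.58, adjusted p = 0.52, 0.193 and 0.448), as values at the lowest code number and not means of the mice. The 12 h call and the atorvastatin 24 h call were also lost with quantile normalization and when each group was fitted alone.

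At 48 h Hey1 was not called in either treatment (0.28 ± 0.21 and 0.13 ± 0.23). In vehicle mice the step from 48 h to 2 weeks was 1.02 ± 0.29 (adjusted p = 0.0305), so the 2 times differed by a test of the difference itself, but 5 of 10 leave-one-out fits and the fit without the mouse block (adjusted p = 0.0664) lost it. In all, 34 of 39 mice had the higher Hey1 value in the ligated artery. Vehicle mouse 2 had the lowest LCA Hey1 value at 2 weeks, 7.33 against 8.10 to 8.24 in the other mice, yet a difference of 1.07 because its RCA value was the lowest too.

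Hey2, which encodes a Hey repressor known for arterial specification, had a course of its own. At 24 h all LCA values of vehicle mice (10.69 to 11.02) lay above all RCA values (10.10 to 10.55), and the same held under atorvastatin (10.55 to 11.05 against 10.08 to 10.52). The mean differences there, 0.50 ± 0.24 (SE, n = 5; adjusted p = 0.176) and 0.56 ± 0.24 (adjusted p = 0.128), were not called in the fit that shares 1 variance over groups, though they passed when each group was fitted alone (adjusted p = 0.0258 and 0.0247). For ranges that do not overlap in the higher direction, the share over all genes was 6.44% and 5.33%.

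At 48 h Hey2 was lower on average and very uneven between mice. In vehicle mice 1 to 5 the LCA values were 9.32, 10.17, 8.96, 10.71 and 9.15, and the RCA values 10.63, 10.01, 10.24, 10.40 and 10.71. Mice 2 and 4 had differences of 0.16 and 0.31, and the other mice had -1.31, -1.28 and -1.56. In atorvastatin mice 6 to 9 the differences were -0.85, 0.24, -2.82 and -1.48, so that mouse 7 stood with the higher ones and mouse 8 was the lowest of all. The means were -0.74 ± 0.24 (SE, n = 5; adjusted p = 0.0171) and -1.23 ± 0.27 (n = 4; adjusted p = 0.000801), and neither was called when its group was fitted alone (adjusted p = 0.144 and 0.171). These SE rest on the variance shared over groups, and the SDs of the mice themselves were 0.89 and 1.28. The vehicle call was also lost without mouse 1, 3 or 5, with a mean as small as -0.53, and the atorvastatin mean without mouse 8 was -0.70.

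The steps from 24 h to 48 h were called in both treatments, with -1.23 ± 0.34 (adjusted p = 0.00805) in vehicle and -1.79 ± 0.36 (adjusted p = 0.000925) in atorvastatin mice, and neither was lost when any mouse was left out. In each treatment 1 of the 8 tested genes had a called step between these times, Hey2, where 27.8% of all genes under vehicle and 24.1% under atorvastatin did. At 2 weeks the differences were -0.37 ± 0.24 and -0.32 ± 0.24 and not called, while 9 of 10 mice had the lower value in the ligated artery. The RCA level of Hey2 stayed within means of 10.28 to 10.57 in the 8 groups, whereas the LCA means went from 10.85 at 24 h to 9.66 ± 0.74 (SD, n = 5) and 9.11 ± 1.45 (n = 4) at 48 h.

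In the mice at 48 h, Hey2 differences were lower where those of the macrophage genes were higher. The 3 mice with Hey2 higher in the ligated artery, vehicle mice 2 and 4 and atorvastatin mouse 7, had macrophage list differences of 1.20, 0.98 and 1.22, the 3 smallest, and atorvastatin mouse 8, with the lowest Hey2, had the largest, 3.34. Over these 9 mice r was -0.97, against -0.45 for the neutrophil genes and 0.62 for the endothelial genes; this list was singled out after its values were seen, and the points share arrays. At 2 weeks the macrophage genes were higher still, by 2.43 to 4.57 under vehicle, and Hey2 differences were small, with r = 0.12 over 10 mice. The part of infiltrating cells in the Hey2 values was not tested.

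**Figure D3:**
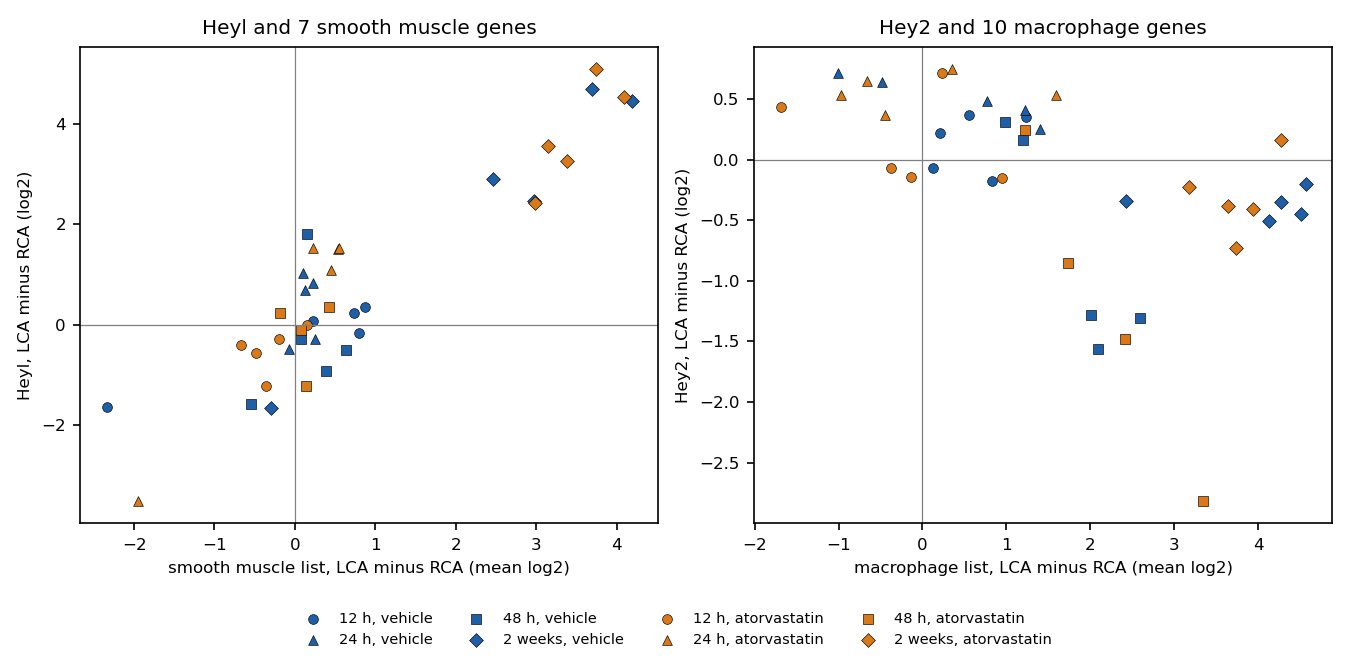
Left, Heyl against the mean of 7 smooth muscle genes; right, Hey2 against the mean of 10 macrophage genes, each as LCA minus RCA (log2), 1 point for each of 39 mice, with colour for treatment and shape for time. Heyl is high where the smooth muscle genes are high, with r = 0.96 over the 10 mice of 2 weeks, and the square symbols of 48 h run downward for Hey2, with r = -0.97 over 9 mice.

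The promoter of Hey2 held 2 RBPJ words, as 0.26% of all promoter windows did, and is shown because Hey2 was the only one of the 7 genes in the table with any. They start 207 and 4 bases before the start site, and appear in capitals; the first is on the opposite strand and reads TTCCCAC. The window lies on the minus strand at chr10:30842759-30843033. A match of letters is a description of the sequence and says nothing on binding in these arteries.
Hey2: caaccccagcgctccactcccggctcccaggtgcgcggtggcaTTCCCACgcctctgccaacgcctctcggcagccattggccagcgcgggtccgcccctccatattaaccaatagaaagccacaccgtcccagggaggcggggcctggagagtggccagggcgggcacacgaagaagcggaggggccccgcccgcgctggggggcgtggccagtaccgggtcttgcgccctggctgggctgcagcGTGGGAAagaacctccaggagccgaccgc

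Heyl, the Hey gene linked with smooth muscle, was higher in the ligated artery at 2 weeks. Under atorvastatin the LCA values of mice 6 to 10 were 8.25, 8.88, 8.09, 8.59 and 9.40, against 5.83, 5.34, 4.82, 4.05 and 4.30 in the RCA, with no overlap. In that group 13.6% of all genes were separated in the higher direction. The mean difference was 3.78 ± 0.61 (SE, n = 5; adjusted p = 7.13e-06). In vehicle mice 1, 3, 4 and 5 the differences were 4.45, 2.47, 4.70 and 2.91, whereas in mouse 2 the LCA value was 3.98 and the RCA value 5.64, a difference of -1.66. The vehicle mean was 2.57 ± 0.61 (adjusted p = 0.00137), 3.63 without mouse 2, and not called when the group was fitted alone (adjusted p = 0.065). Its SE rests on the variance shared over groups, and the SD of the vehicle mice themselves was 2.55. Of the 2 other Heyl probe sets, one gave 1.46 and 1.91 in vehicle and atorvastatin mice, called in both, and the other 0.18, not called, and 0.36, called.

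Before 2 weeks no Heyl difference was called, with means of -0.50 to 0.42. The steps from 48 h to 2 weeks were 2.87 ± 0.86 (adjusted p = 0.0406) under vehicle and 3.96 ± 0.91 (adjusted p = 0.00485) under atorvastatin; the vehicle step was lost in 7 of 10 leave-one-out fits. Of the 8 tested genes, 2 had a called step between these times in each treatment, Hey1 and Heyl under vehicle, where 5.76% of all genes did (3.68% upward and 2.08% downward), and Jag1 and Heyl under atorvastatin, where 8.32% did (4.28% upward).

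The smooth muscle genes moved with Heyl. Their mean LCA level at 2 weeks reached 10.06 in vehicle mice 1, 3, 4 and 5, with none below 9.0, and was 9.19 to 10.16 in the atorvastatin mice, but 5.94 in vehicle mouse 2, the mouse without the Heyl difference. Among control arteries, Heyl values of 7.19 in atorvastatin mouse 9 at 24 h and 5.76 in vehicle mouse 3 at 12 h came with smooth muscle means of 7.54 and 8.12, but 5.83 in atorvastatin mouse 6 at 2 weeks came with 6.20, where the RCA of that time ranged from 5.41 to 6.53. Atorvastatin mouse 10 of 2 weeks had a smooth muscle mean of 6.42 in its RCA and a Heyl value of 4.30. All 3 smooth muscle contractile genes checked singly, Acta2 (2.40 and 2.60), Myh11 (2.06 and 3.28) and Cnn1 (2.40 and 3.73), were higher in the ligated artery at 2 weeks under vehicle and atorvastatin. The part of smooth muscle RNA in the Heyl difference was not tested.

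Hes1, a general Notch target, gave low values throughout, 3.06 to 4.79, and was examined only in a fit without the filter, over 17097 genes. It was lower in the ligated artery in 32 of 39 mice. In atorvastatin mice at 48 h the difference was -0.71 ± 0.20 (SE, n = 4; adjusted p = 0.00798), with LCA values of 3.39 to 3.67 below RCA values of 3.98 to 4.51. In that group 8.92% of all genes that passed the filter were separated in the lower direction. No other group was called, and the vehicle mice at 48 h gave -0.41 ± 0.18 (adjusted p = 0.0879).

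Treatment with atorvastatin was compared with vehicle in 3 ways, on the LCA minus RCA difference and in each artery alone. By limma none of the 8 tested genes was called in any of them at any time; of 32 tests each, 1, 2 and 4 had an unadjusted p under 0.05 for the difference, the LCA and the RCA. For the difference, 1 of 11344 genes was called at 12 h (0.00882%), 2 at 2 weeks (0.0176%) and 0 at 24 h and 48 h; in the LCA 0 were called at each time, and in the RCA 5 at 12 h (0.0441%), 1 at 2 weeks (0.00882%) and 0 at 24 h and 48 h. Averaged over times, the effects on the difference ranged from -0.33 ± 0.19 (SE) for Dll1 to 0.28 ± 0.44 for Heyl, and the unadjusted p under 0.05 was that of Dll1 at 2 weeks. At 12 h Notch1 was 0.55 higher in the LCA and 0.50 higher in the RCA of atorvastatin than of vehicle mice (adjusted p = 0.9 and 0.307). With array weights the LCA value was called (0.73, adjusted p = 0.0467). The Notch1 difference between treatments in the RCA, averaged over times, was 0.32 ± 0.09 (SE, unadjusted p = 0.000881, adjusted p = 0.249). With 4 or 5 mice in a group, the standard errors of 0.21 to 0.91 of the effect on the difference at single times set the size of change that could be seen.

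Over 39 mice the Dll1 difference was most like that of Tmod3 (r = 0.77), Kank3 (0.75) and Fbxo34 (0.75), and Notch1 was most like Cltb (0.83), Phc2 (0.76) and Gabarapl2 (0.75). Hey2 was closest to Isl1 (0.94), H2aw (0.93) and Prr15 (0.92), and Heyl to the muscle genes Lmod1 (0.89), Actg2 (0.88) and Myom1 (0.87). Lmod1 and Actg2 also belong to the smooth muscle list set against Heyl above, so they are not a separate observation. For Jag1 the closest gene was Bvht (0.76), for Dll4 Pop1 (0.75), for Notch4 Gyg (0.78) and for Hey1 Itgb5 (0.67). No member was among the 3 genes closest to another member. These correlations pool times and treatments, and the points share the arrays and the common time course.

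Other Notch pathway and artery or vein genes, 67 listed and 51 tested, were called in both directions. In vehicle mice 1 was higher and 0 lower at 12 h, 7 and 5 at 24 h, 2 and 13 at 48 h and 9 and 11 at 2 weeks. In atorvastatin mice the counts were 1 and 0, 6 and 7, 3 and 15, and 8 and 15. The shares of all genes called in each direction, given above for the same comparisons, are the background for these counts: at 48 h under vehicle 20.8% of all genes were called higher and 15.4% lower.

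**Figure D4:**
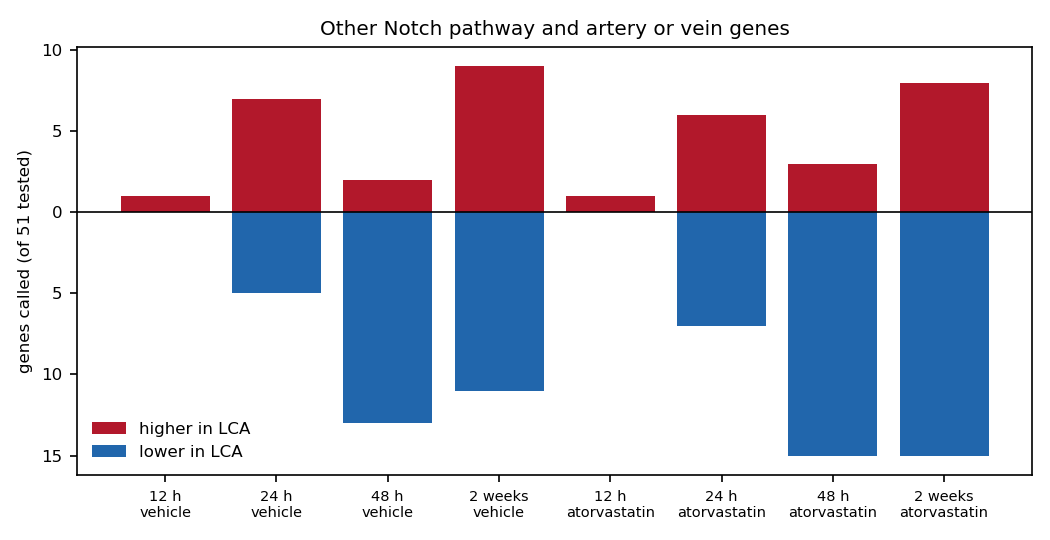
Number of the 51 tested pathway genes called (adjusted p under 0.05) higher in the LCA, above the line, and lower, below it, for each time and treatment. At 48 h 2 were higher and 13 lower under vehicle, and 3 and 15 under atorvastatin.

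Genes that cut the receptor were called mainly in the lower direction. At 48 h in vehicle mice 4 of 8 tested were lower and 0 higher, among them Aph1b (-1.13 ± 0.19 SE, adjusted p = 3.28e-05) and Ncstn (-0.65 ± 0.15, adjusted p = 0.00114), both parts of the gamma-secretase complex that releases the receptor's intracellular part. At 2 weeks in vehicle mice Aph1b stood at -1.85 ± 0.19 (adjusted p = 3.14e-09), lower in 5 of 5 mice, while Adam17, a protease that cuts at the cell surface, was higher by 0.32 ± 0.11 (adjusted p = 0.0266), and not called under atorvastatin (0.23 ± 0.11, adjusted p = 0.125). The list's median difference at 48 h was -0.22, against 0.01 over all genes.

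Inhibitors and Notch turnover genes were called in both directions. Nrarp, a Notch target that limits signalling, was called lower in every group but those of 12 h (vehicle there -0.76 ± 0.24, adjusted p = 0.0873, lower in 5 of 5 mice), with -1.33 ± 0.24 (adjusted p = 0.000213) at 24 h and -1.02 ± 0.24 (adjusted p = 0.00119) at 2 weeks in vehicle mice and -1.72 ± 0.24 (adjusted p = 5.2e-07) at 2 weeks under atorvastatin. Numb, an inhibitor of the receptor, was lower at 48 h (-0.68 ± 0.12, adjusted p = 2.86e-05) and 2 weeks (-0.57 ± 0.12, adjusted p = 0.000222) in vehicle mice. Dtx4, a ubiquitin ligase of the pathway, was higher at 2 weeks (1.95 ± 0.35, adjusted p = 4.64e-05). Nrarp and Hey1, both known as Notch targets, thus stood on opposite sides.

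Of the genes that modify receptors or ligands, 1 of 9 was higher and 3 were lower at 48 h under vehicle, among them the fringe glycosyltransferase Mfng (0.55 ± 0.22, adjusted p = 0.0465) and the ubiquitin ligase Mib2, which acts on ligands (-0.67 ± 0.16, adjusted p = 0.00172). Lfng, another fringe, was lower at 2 weeks in both treatments (-0.74 ± 0.21, adjusted p = 0.0076, and -1.12 ± 0.21, adjusted p = 8.7e-05). Rbpj, the DNA-binding partner of the receptor, was called only in atorvastatin mice at 48 h (0.72 ± 0.18, n = 4; adjusted p = 0.00192). Notch2 was called in no group. Notch3, the smooth muscle receptor, was higher at 2 weeks with 1.58 ± 0.24 (adjusted p = 2.98e-06) in vehicle mice, in 4 of 5, and 2.39 ± 0.24 (adjusted p = 7.81e-10) in atorvastatin mice, in 5 of 5, and was called at no earlier time.

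Arterial identity genes were called in both directions in the same arteries. Gja4, a connexin of arterial endothelium, was higher in all 8 groups, by 0.59 to 1.21, while Gja5, another arterial connexin, was lower at 24 h (-1.96 ± 0.43, adjusted p = 0.00209, and under atorvastatin, adjusted p = 0.00175) and at 2 weeks (-1.38 ± 0.43, adjusted p = 0.0155, and -1.13 ± 0.43, adjusted p = 0.0458). At 48 h Gja5 was called lower under atorvastatin (-2.25 ± 0.49, n = 4; adjusted p = 0.000615) and not under vehicle (-0.74 ± 0.43, adjusted p = 0.183). Efnb2, an arterial ephrin ligand and Notch target, was lower at 48 h, by -0.65 ± 0.14 (adjusted p = 0.000565) and -0.79 ± 0.16 (adjusted p = 0.000298), with steps from 24 h of -0.65 and -0.90, the time at which Hey2 was lower. Bmx was lower at 48 h (-1.50 ± 0.26, adjusted p = 3.29e-05). Among venous genes Nr2f2 was higher at 2 weeks (1.26 ± 0.48, adjusted p = 0.0491, and 1.56 ± 0.48, adjusted p = 0.0131) and Ephb4 lower (-1.36 ± 0.27, adjusted p = 0.000154, vehicle).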

How the data were processed

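RNA from the LCA and RCA of 39 mice was measured on 78 Affymetrix arrays with 45118 probe sets. The values deposited by the authors are on the log2 scale. The submitters' processing notes name RMA as the method, and its version and other settings were not given in the sources used here. RMA normalizes all arrays together, which assumes that most genes keep their level. Probe sets were named from the platform annotation: 28898 carried 1 symbol and 551 several, and these last were not used. Each gene was represented by its probe set with the highest mean and tested if above the array median on at least 4 arrays (11344 genes). The LCA minus RCA difference of each mouse was fitted in limma 3.58.1 (R 4.3.3) over the 8 groups, which share 1 variance, with eBayes and Benjamini-Hochberg adjustment over all genes; each artery alone was fitted likewise. The mouse number pairs the arteries because both come from 1 animal; their deviations from the group means correlated with r = -0.34 to 0.51 (median 0.09), above 0.1 in 19 of 39 mice. The code was tested on simulated data. Alternatives left out each mouse in turn, dropped the mouse block or the filter, or used array weights, another variance model, quantile normalization, each group alone, all probe sets, or the code number in the titles as a block. The members and lists were chosen with earlier results of these data known. The text names all members, up to 2 other pathway genes per list and direction at 48 h and 2 weeks in vehicle mice with the smallest adjusted p, moved alike in every mouse, 9 pathway genes set by name, and the 3 genes most correlated with each member. Promoter sequences came from RefSeq (GRCm38.p6).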

Additional observations from a re-analysis of the deposited data

Results flagged for a closer look

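In 216 checks of a group of 4 or 5 mice, 12 single values stood apart from the others of their group, and chance flags about 1 in 20, or 10.8. For Dll1 these were LCA values under atorvastatin, 8.50 in mouse 9 at 24 h (others 7.75 to 7.95) and 8.35 in mouse 7 at 48 h (others 6.79 to 6.82), whose neutrophil list difference was 1.30. For Dll4 they were the RCA of vehicle mouse 2 at 2 weeks, 4.81, and the difference of atorvastatin mouse 6 at 24 h, 0.72. For Notch4 they were the LCA of vehicle mouse 5 at 12 h, 7.89, and the difference of atorvastatin mouse 6 at 2 weeks, 0.18. Hey1 had 1, the LCA of vehicle mouse 2 at 2 weeks, 7.33. Heyl had 4: the difference of vehicle mouse 3 at 12 h, -1.63, the LCA of vehicle mouse 2 at 48 h, 5.92, and the RCA and difference of atorvastatin mouse 9 at 24 h, 7.19 and -3.52. Hes1 had 1, the LCA of vehicle mouse 3 at 24 h, 4.12.

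The LCA minus RCA difference itself changed between successive times for Hey2 from 24 h to 48 h, by -1.23 under vehicle and -1.79 under atorvastatin, for Heyl from 48 h to 2 weeks, by 2.87 and 3.96, for Hey1 from 48 h to 2 weeks under vehicle, by 1.02, and for Jag1 from 48 h to 2 weeks under atorvastatin, by 1.1. Each was called by a limma test of the difference between the times. The Jag1 step was lost in 7 leave-one-out fits and with the code number as a block (0.90, adjusted p = 0.299), and the vehicle step was not called (0.69, adjusted p = 0.209).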

How the results depend on the processing

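No result changed sign under an alternative in which it was called. The number of the 8 tested Notch genes called moved with the code number from the titles as a block, kept with the mouse block: 1 at 12 h, 2 at 24 h and 3 at 48 h in vehicle mice (from 2, 4 and 5), and 0 at 12 h and 1 at 24 h under atorvastatin (from 2 and 4), 3 successive-time steps (from 6) and 1 change over time in the RCA under atorvastatin (from 3). Under that block Jag1 was not called at 24 h (-0.96, adjusted p = 0.228, and -0.94, adjusted p = 0.241) or at 48 h under vehicle (-0.94, adjusted p = 0.12), the Jag1 step from 48 h to 2 weeks under atorvastatin was not called (0.90, adjusted p = 0.299), Notch1 was not called at 24 h (-0.64 and -0.68, adjusted p = 0.166 and 0.131) or 48 h (-0.07 and -0.46, adjusted p = 0.869 and 0.133), and Dll1 was not called under atorvastatin at 12 h (-1.79, adjusted p = 0.364), but it was called in the other 7 groups; Dll4 became called at 24 h (1.17) and 2 weeks (0.90 and 1.29). Hey1 was not called under that block at 12 h in vehicle mice or at 24 h in either treatment. Also lost under it were Jag1 at 12 h and Notch4 at 2 weeks under atorvastatin, and the vehicle steps of Hey1 and Heyl from 48 h to 2 weeks. What the code number stands for is not given in the sources used here. Under this block the LCA minus RCA value of a group is that at the lowest code number, not the mean of its mice. The calls lost and gained in single groups therefore do not decide whether they depend on the code number. Steps and changes over time compare groups, so the reference code cancels in them, and the cause of their losses was not tested. Without the replicate block that pairs the arteries of a mouse, 1 gene was called at 12 h in vehicle mice, and the calls of Notch1 at 48 h under vehicle and Notch4 at 2 weeks under atorvastatin were lost too (adjusted p = 0.0941 and 0.0692). With array weights 1 was called at 12 h in each treatment, 5 and 6 changed over time in vehicle and atorvastatin mice (from 3 each), 14 steps were called and 1 gene, Notch1 at 12 h, differed between treatments in the LCA (0.73, adjusted p = 0.0467); the mean of all probe sets gave 6 changes over time in vehicle mice. Intensity trend with robust eBayes gave 1 at 12 h in each treatment, quantile normalization 1 at 12 h in vehicle, no filter 1 at 12 h under atorvastatin, and the mice of each group alone 1 at 12 h in each treatment and 3 and 2 at 48 h. Leaving out each mouse gave 1 to 2 called at 12 h in each treatment, 3 to 4 at 24 h in each, 3 to 4 at 48 h under vehicle, 4 to 5 under atorvastatin, 4 to 4 and 4 to 5 at 2 weeks, 4 to 8 steps, 1 to 4 and 3 to 4 changes over time, 4 to 4 and 1 to 3 in the RCA, and 0 to 1 between treatments in the RCA. Another probe set in a gene's place, an alternative chosen after seeing the data, lost the atorvastatin calls of Notch1 at 48 h (-0.45, adjusted p = 0.0956) and Notch4 at 2 weeks (-0.06, from a probe set above the array median on 0 arrays) and the vehicle call of Heyl at 2 weeks (0.18, from one above it on 1 array, which gave 0.36 under atorvastatin; the remaining Heyl probe set gave 1.46 and 1.91, against 2.57 and 3.78). Low signal limits Hes1, Dll4 and Heyl.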
